A study of Mus musculus with 282 samples.

Results

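The genes described here are 9 transcription factors that mark the prostate lineage: the homeobox genes Hoxb13, Hoxa13, Hoxd13, Hoxa10 and Hoxd10, the forkhead gene Foxa1, the GATA genes Gata2 and Gata3, and the ETS gene Spdef. They were chosen by name, and all 9 had a row among the 48440 genes of both count tables. The series holds single-cell RNA-seq of basal prostate stem cells from male POET3 mice, a transgenic line that makes ovalbumin in the prostate and serves as a model of prostatitis. One set of cells came from inflamed prostates and the other from naive prostates, so both carry the transgene, and each set was processed in batch 2 and in batch 3. The labels and protocols used here do not give the age, the means of inducing inflammation or the number or pooling of animals. Cells were sorted with antibodies to CD45, CD31, Sca-1 and CD49f, captured on a Fluidigm C1 and amplified with SMARTer chemistry, which reads whole transcripts and carries no molecular identifiers. The comparison asks how these factors differ between inflamed and naive cells within each batch.

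Hox genes lie in 4 clusters, and genes at the posterior end, with the highest numbers, give position to the hindgut, limb ends and urogenital tract. Hoxb13, Hoxa13 and Hoxd13 act in growth and branching of the mouse prostate, and Hoxb13 stays on in adult prostate epithelium, where it can bind together with the androgen receptor. FOXA1 is a pioneer factor that opens chromatin for the androgen receptor. GATA2 works with both at androgen-regulated enhancers, GATA3 acts in basal and luminal epithelial fates, and SPDEF is an ETS factor of luminal and secretory epithelium.

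The promoters of Foxa1 and Gata3 are shown because these were the 2 members with reads in the most cells. Both are RefSeq windows of GRCm38.p6, from 250 bases before to 50 bases after a start site, and 8 of the 9 members had such a window. Capitals mark a match to the forkhead motif GTAAACA on either strand, which 3.65% of 32851 mouse promoter windows hold. The Foxa1 window is chr12:57546062-57546361, minus strand, with the match beginning at position -141 from the start site. The Gata3 window is chr2:9878551-9878850, minus strand.
Foxa1: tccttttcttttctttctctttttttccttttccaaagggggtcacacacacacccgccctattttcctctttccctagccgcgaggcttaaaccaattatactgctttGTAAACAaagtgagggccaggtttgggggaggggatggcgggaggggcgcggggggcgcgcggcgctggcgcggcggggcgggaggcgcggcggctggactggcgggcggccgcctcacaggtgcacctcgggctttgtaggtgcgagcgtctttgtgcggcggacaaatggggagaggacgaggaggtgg
Gata3: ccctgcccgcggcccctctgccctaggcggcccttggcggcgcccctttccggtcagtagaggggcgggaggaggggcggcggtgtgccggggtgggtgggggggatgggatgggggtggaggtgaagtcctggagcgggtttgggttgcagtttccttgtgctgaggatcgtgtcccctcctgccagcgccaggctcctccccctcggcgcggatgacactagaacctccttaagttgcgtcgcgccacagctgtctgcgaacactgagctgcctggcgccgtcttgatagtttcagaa
The GATA letters AGATAA (11.2% of windows) and the HOX13 letters CAATAAA (4.6% of windows) were also searched on both strands. Of the 10 windows of the members, only that of Foxa1 held a match to any of these 3 motifs. A match is a description of the letters and not a measured binding site.

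After cells with few genes or counts were left out, 268 of 282 cells remained: 80 and 76 inflamed cells and 53 and 59 naive cells in batches 2 and 3. Reads were summed over the cells of each condition and batch, which gave 4 sums of 50105953 to 79225330 counts, and the median cell had 840863 to 1001872 counts. No name of a cell was shared between the tables. All 10 basal markers, among them Krt5, Krt14 and Trp63, had reads in all 4 sums, and the 8 leukocyte markers were listed at 0 in all 4. The sources used here do not say why, and a listed 0 does not show that no leukocyte was sorted. Of the stromal markers, Dcn stood at 3377 to 4397 CPM, while Col1a1, Col1a2 and Col3a1 did not exceed 2.34 CPM. Acta2 had 0.495 and 35.2 CPM in inflamed sums of batches 2 and 3, against 31.8 and 0.274 CPM in naive sums, Pdgfra had 0 and 1.22 CPM, against 36.2 and 0.0211 CPM, and Myh11 was at 0 in all 4.

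Levels are given as CPM, counts scaled to a common library size with TMM factors. Fold changes are log2 of inflamed over naive with their SE, and in each of them n = 2 sums per condition. Per kilobase of exon and averaged over the 4 sums, Gata3 was the most abundant factor at 100.7 CPM per kilobase. It was followed by Foxa1 at 56.1, Hoxb13 at 30.7, Hoxd13 at 23.8, Hoxa10 at 7.71, Hoxd10 at 4.42, Hoxa13 at 3.52, Gata2 at 2.19 and Spdef at 0.0691. Every neighbouring pair in this order had overlapping ranges over the 4 sums, except Gata2 (0.847 to 3.17) and Spdef (0 to 0.253). Gata3 and Foxa1 had reads in most cells of every sum, and Hoxd10, Gata2 and Spdef in few.

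**Figure D1:**
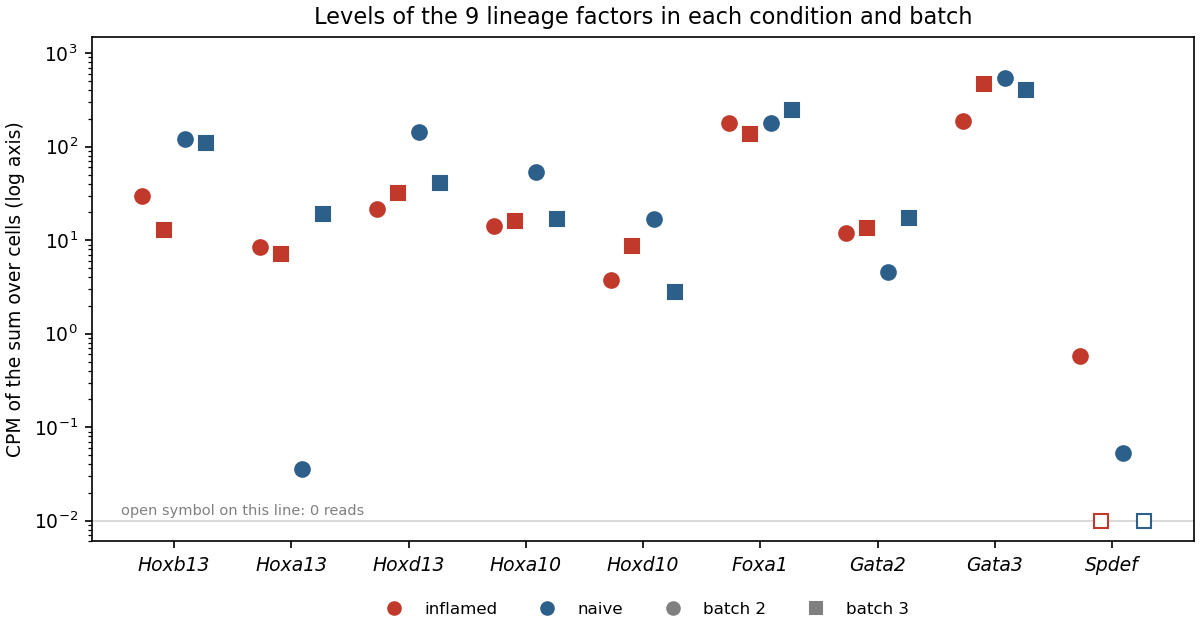
CPM of each factor (log axis) in the 4 sums over cells, with inflamed sums in red left of naive sums in blue, circles for batch 2 and squares for batch 3. Hoxb13 stood at 29.4 and 12.97 CPM in the inflamed sums, below both naive sums, and Gata3 was the highest of the factors in every sum.

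Hoxb13 (ENSMUSG00000049604; GRCm38 chromosome 11, 96194316 to 96197447, plus strand) had 29.4 CPM in inflamed batch 2 and 12.97 CPM in inflamed batch 3, against 119.7 CPM in naive batch 2 and 108.6 CPM in naive batch 3. Both inflamed sums lay below both naive sums, by 4.07-fold in batch 2 and by 8.38-fold in batch 3. Hoxb13 was 1 of the 27.2% of 14713 tested genes that were lower in inflamed cells in both batches. Its log2 fold change was -2.55 ± 0.57 (95% interval -4.19 to -0.91). The edgeR quasi-likelihood test gave an unadjusted p of 0.0168 and an adjusted p of 0.568. At an unadjusted p under 0.05, 3.23% of all genes were lower. No gene of the 14713 passed after adjustment (a background of 0%), so none of the values below is a call by edgeR. DESeq2, with 1 residual degree of freedom, gave Hoxb13 an adjusted p of 0.00356 and called 3.63% of genes lower.

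In a sum, fewer cells with a transcript and less transcript per cell cannot be told apart, so the cells were also counted singly. At least 1 read of Hoxb13 was found in 20% (95% exact interval 11.9 to 30.4) of inflamed cells of batch 2 and 15.8% (8.4 to 25.96) of inflamed cells of batch 3. The shares were 86.8% (74.7 to 94.5) of naive cells of batch 2 and 50.8% (37.5 to 64.1) of naive cells of batch 3. At this threshold neither inflamed interval overlapped a naive one, and intervals cover counting error only. With at least 5 reads required, the shares were 7.5% and 11.8% of inflamed cells, against 49.1% and 23.7% of naive cells in batches 2 and 3. In cells thinned to 500000 counts, they were 11.4% and 13.9% of inflamed cells, against 84.8% and 36.4% of naive cells. In batch 3 the intervals then overlapped, at 5.56 to 21.3 for inflamed and 13.6 to 36.6 for naive cells with 5 reads, and at 6.87 to 24.1 for inflamed and 23.8 to 50.4 for naive cells after thinning.

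The cells that did carry Hoxb13 could carry much of it in either condition. A level of at least 100 CPM was reached by 4 of 80 and 4 of 76 inflamed cells, against 15 of 53 and 9 of 59 naive cells in batches 2 and 3. The highest cells stood at 1795 and 407 CPM among inflamed cells, against 799 and 1865 CPM among naive cells. A single cell gave 59.03% of the Hoxb13 reads of inflamed batch 2 and 31.03% of those of inflamed batch 3, against 21.03% and 18.5% in the naive sums. Without the highest cell of each sum, the log2 fold change was -3.09, with an adjusted p of 0.568 by edgeR.

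Markers of nearby epithelia stood at other levels in the conditions too. The 6 proximal duct markers summed to 2166 and 2136 CPM in inflamed sums, against 293 and 586 CPM in naive sums of batches 2 and 3. All 6 had reads in both inflamed sums, and 5 and 6 of them in the naive sums, where Psca was at 0 in batch 2. The 6 urothelial markers summed to 356 and 431 CPM, against 72.5 and 33.8 CPM. Nearly all of that was Upk1b, with 3 and 3 of the markers detected in inflamed sums, against 2 and 1 in naive sums, and with Upk3a at 0 in all 4. The 8 seminal vesicle markers summed to 67.2 and 0 CPM in inflamed sums, against 11.6 and 169.6 CPM in naive sums, with Svs1 and Pax2 at 0 in all 4. The part of these cells in the Hoxb13 difference was not tested. Inflamed cells had medians of 1001872 and 998864 counts, against 971069 and 840863 counts in naive cells of batches 2 and 3. The median numbers of detected genes were 4683 and 4108.5 in inflamed cells, against 4739 and 3432 in naive cells.

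**Figure D2:**
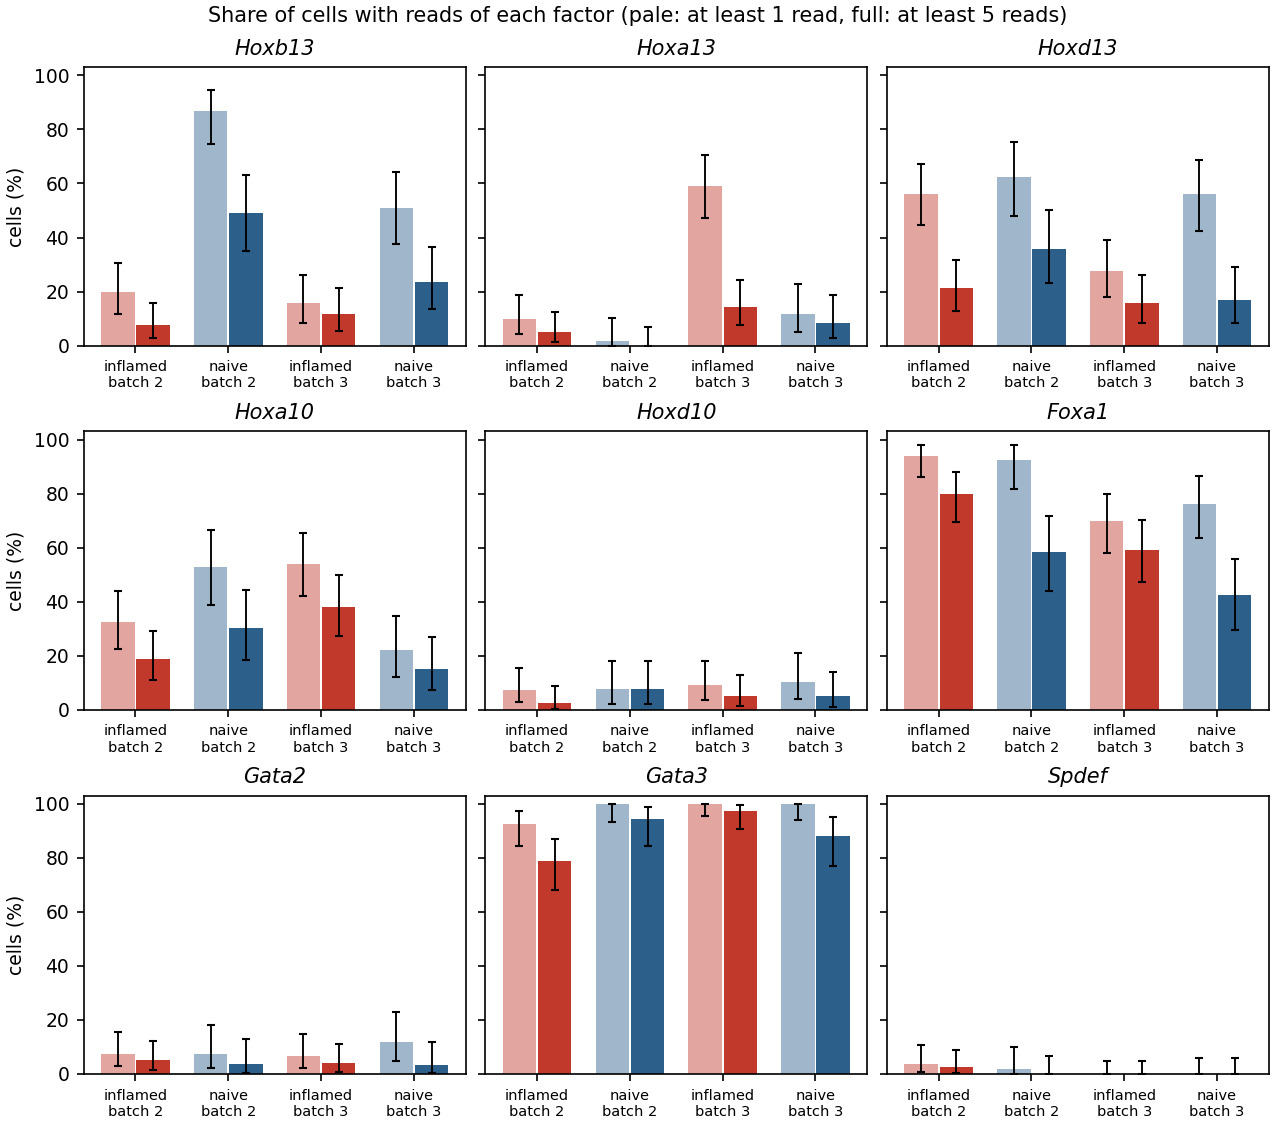
Percent of cells with at least 1 read (pale bars) and at least 5 reads (full bars) of each factor in inflamed (red) and naive (blue) cells of each batch, with exact 95% intervals. Hoxb13 had a read in 20% and 15.8% of inflamed cells, against 86.8% and 50.8% of naive cells.

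Hoxd13 (ENSMUSG00000001819; chromosome 2, 74668310 to 74671599, plus strand), which patterns the distal limb and the urogenital sinus, had 21.8 CPM in inflamed batch 2 and 32.04 CPM in inflamed batch 3, against 141.98 CPM in naive batch 2 and 40.5 CPM in naive batch 3. The inflamed sums were again the lower ones, by 6.52-fold in batch 2 but only 1.26-fold in batch 3. In the fit this came to a log2 fold change of -1.52 ± 0.81 (95% interval -3.87 to 0.82), with an adjusted p of 0.714 by edgeR. Reads were in 56.2% and 27.6% of inflamed cells, against 62.3% and 55.9% of naive cells. With 5 reads required, these shares came to 21.2% and 15.8%, against 35.8% and 16.9%. In inflamed batch 3, 1 cell gave 63.96% of the reads.

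Hoxa13 (ENSMUSG00000038203; chromosome 6, 52257694 to 52260880, minus strand), the third member of the 13 group, went opposite ways in the sums of the 2 batches. It had 663 counts (8.41 CPM) in inflamed batch 2 and 543 counts (7.14 CPM) in inflamed batch 3, against only 2 counts (0.0354 CPM) in the naive sum of batch 2 but 914 counts (19.3 CPM) in that of batch 3. In batch 2 the ratio of inflamed to naive was 237 (95% counting interval 65.4 to 1964), and in batch 3 the inflamed sum was 2.70-fold lower. Of all genes tested, 39.7% had opposite directions in the batches. Each large sum rested on few cells: the top cell gave 68.2% and 57.1% of the inflamed reads, and 66.3% of those of naive batch 3. At least 1 read was found in 10% and 59.2% of inflamed cells, against 1.89% and 11.9% of naive cells of batches 2 and 3. With 5 reads required, the shares were 5% and 14.5%, against 0% and 8.47%. In thinned cells they were 8.57% and 43.1% of inflamed cells, against 2.17% and 10.9% of naive cells. By these shares, unlike the sums, inflamed cells were higher in both batches. The exact intervals overlapped in batch 2 throughout and in batch 3 with 5 reads. The fitted log2 fold change had the wide interval of -4.14 to 10.12 (2.99 ± 2.48, adjusted p = 0.958 by edgeR), and its sign depended on the setting: it was -0.31 with no batch in the model.

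Of the 10 group, Hoxa10 (ENSMUSG00000000938; chromosome 6, 52231197 to 52240854, minus strand) had 14.2 and 16.1 CPM in the inflamed sums of batches 2 and 3, against 53.5 and 16.9985 CPM in the naive sums. The gap lay in batch 2, at 3.76-fold lower, and was 1.06-fold in batch 3. Its log2 fold change was -0.995 ± 0.98 (95% interval -3.80 to 1.81), with an adjusted p of 0.886 by edgeR. The shares of cells with a read ran against each other between the batches, at 32.5% and 53.9% of inflamed cells, against 52.8% and 22.03% of naive cells. In naive batch 2, 1 cell gave 38.1% of the reads, and without the top cell of each sum the log2 fold change was -0.50.

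Hoxd10 (ENSMUSG00000050368; chromosome 2, 74691924 to 74695105, plus strand) was scarce, with 3.77 and 8.67 CPM in the inflamed sums, against 16.9 and 2.80 CPM in the naive sums of batches 2 and 3. The inflamed sum was 4.47-fold lower in batch 2 and 3.09-fold higher in batch 3. Reads were in 7.5% and 9.2% of inflamed cells, against 7.5% and 10.2% of naive cells, and 1 cell gave 61.5% to 89.6% of the reads of each sum. Its log2 fold change was -0.27 ± 1.70, with an adjusted p of 1 by edgeR, and turned to 1.23 without the top cells. An RNA gene on the same strand, Gm28309, shares exonic bases with Hoxd10, and its highest level in a sum was 0.210 CPM.

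Counting all 5 homeobox members together, at least 5 reads of any of them were found in 46.2% (95% exact interval 35.03 to 57.8) and 57.9% (46.02 to 69.1) of inflamed cells, against 75.5% (61.7 to 86.2) and 49.2% (35.9 to 62.5) of naive cells of batches 2 and 3. The order of the conditions thus differed between the batches, whereas for Hoxb13 counted by itself it did not.

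**Figure D3:**
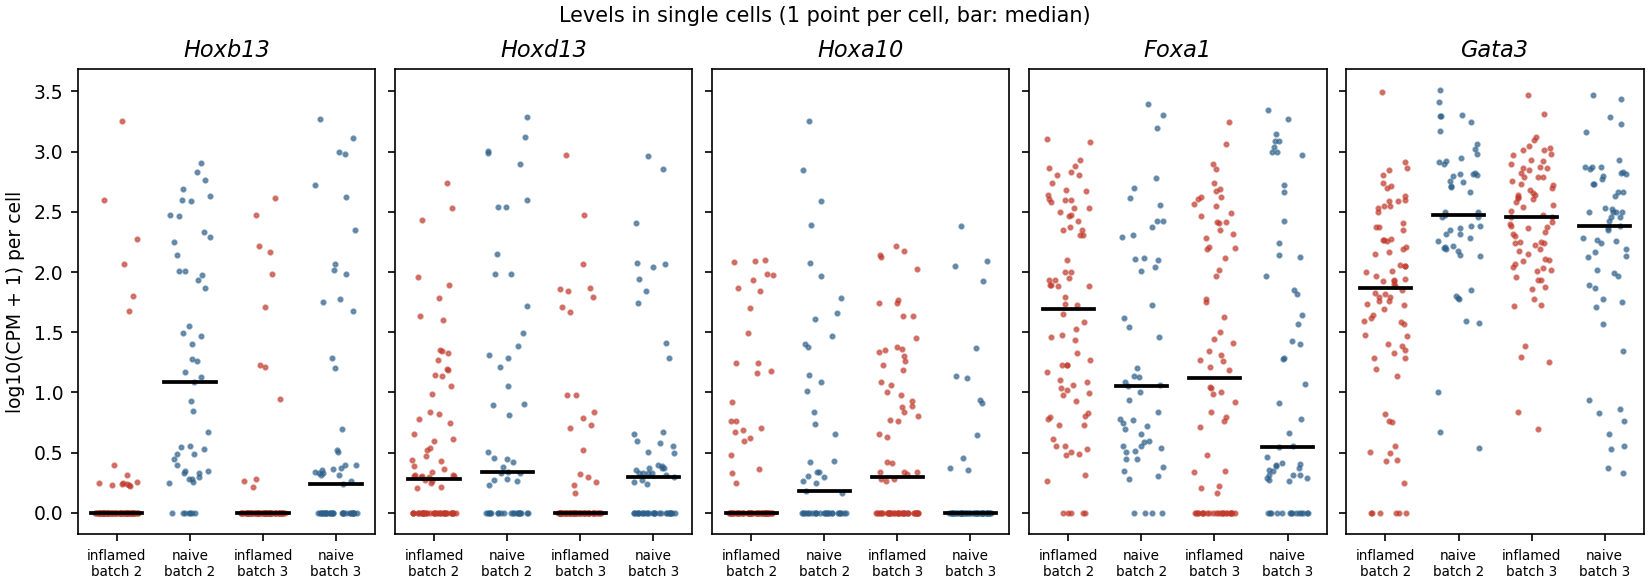
Level of 5 factors in single cells as log10(CPM + 1), 1 point per cell, with the median as a black bar, for inflamed (red) and naive (blue) cells of each batch. The median of Hoxb13 was 0 in both sets of inflamed cells, against 11.3 and 0.727 CPM in naive cells, and that of Foxa1 was higher in the inflamed cells of each batch.

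Foxa1 (ENSMUSG00000035451; chromosome 12, 57540628 to 57546916, minus strand), whose promoter is printed above, had 179.5 and 137.6 CPM in the inflamed sums of batches 2 and 3, against 181.2 and 248 CPM in the naive sums. The sums were nearly equal in batch 2, and in batch 3 the inflamed sum was 1.81-fold lower. The fitted log2 fold change was -0.43 ± 0.40 (95% interval -1.59 to 0.73), with an adjusted p of 0.862 by edgeR. The measures over single cells differed from the sums and from each other. A read was found in 93.8% and 69.7% of inflamed cells, against 92.5% and 76.3% of naive cells, and after thinning in 90% and 65.3%, against 87% and 65.5%. The median cell had 48.4 and 12.2 CPM among inflamed cells, against 10.3 and 2.51 CPM among naive cells. At least 5 reads were found in 80% (69.6 to 88.1) and 59.2% (47.3 to 70.4) of inflamed cells, against 58.5% (44.1 to 71.9) and 42.4% (29.6 to 55.9) of naive cells. The 3 highest cells gave 24.8% and 30.2% of the inflamed reads, against 54.8% and 39.8% of the naive reads. By this measure the naive sums rested more on a few cells of high level, though they also held fewer cells. The top cell alone gave 12.1% and 15.02% of the inflamed reads, against 20.9% and 15.3% of the naive reads. Without the highest cell of each sum, the log2 fold change of Foxa1 was -0.41.

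Gata3 (ENSMUSG00000015619; chromosome 2, 9857078 to 9890034, minus strand) had 189.3 and 471 CPM in the inflamed sums, against 542 and 401 CPM in the naive sums of batches 2 and 3. Inflamed batch 2 stood below the other 3 sums, 2.86-fold lower than its naive partner, while in batch 3 the inflamed sum was 1.17-fold higher. The fit gave a log2 fold change of -0.64 ± 0.54 (95% interval -2.18 to 0.90), with an adjusted p of 0.842 by edgeR. The median cell showed the same split, at 72.8 and 285 CPM among inflamed cells, against 299 and 241 CPM among naive cells. A read was found in 92.5% and 100% of inflamed cells, against 100% and 100% of naive cells. Of the genes whose span overlaps Gata3, the antisense Gm13256 and the same-strand 9230102O04Rik share exonic bases with it, and 4930412O13Rik shares none. The highest level of any of them was 1.15 CPM, for 9230102O04Rik in inflamed batch 2.

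Gata2 (ENSMUSG00000015053; chromosome 6, 88193891 to 88207032, plus strand) had 12.03 and 13.6 CPM in the inflamed sums, against 4.57 and 17.1 CPM in the naive sums of batches 2 and 3. The ratio of inflamed to naive was 2.63 in batch 2, and in batch 3 the inflamed sum was 1.26-fold lower. Only 6 of 80 and 5 of 76 inflamed cells had a read, against 4 of 53 and 7 of 59 naive cells. The fit gave a log2 fold change of 0.53 ± 1.31, with an adjusted p of 0.987 by edgeR, and 3.11 without the top cell of each sum. In naive batch 2, 1 cell gave 97.3% of the reads.

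Spdef (ENSMUSG00000024215; chromosome 17, 27714352 to 27728955, minus strand) was nearly absent from the tables. It had 46 counts in inflamed batch 2 and 0 in inflamed batch 3, against 3 counts in naive batch 2 and 0 in naive batch 3. These came from 3 of 80 inflamed cells and 1 of 53 naive cells, and 0 of 76 inflamed and 0 of 59 naive cells of batch 3 allow shares of up to 3.95% and 5.08%. It was the only one of the 9 members that did not pass the filter on low counts. The ratio of inflamed to naive in batch 2 was 10.98 (95% counting interval 3.53 to 55.2), and batch 3 gave none. Without the filter, the log2 fold change was 3.07 ± 2.94, with an adjusted p of 0.768 by edgeR.

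**Figure D4:**
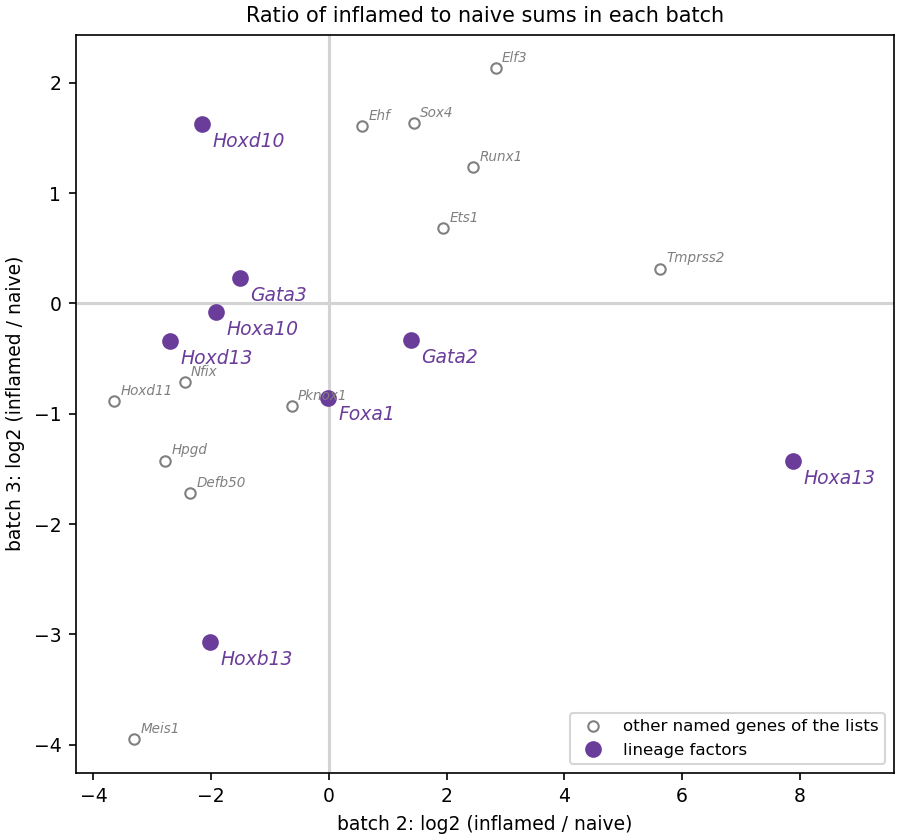
Ratio of the inflamed to the naive sum on the log2 scale, batch 2 on the horizontal and batch 3 on the vertical axis, for 8 factors (filled) and some other genes of the lists (open), leaving out Spdef and Mmp7. Hoxb13, at -2.02 and -3.07, lies with Meis1 in the lower left, where both batches are lower in inflamed cells, and Hoxa13 lies far to the right.

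The factors showed little relation to one another over the cells by the measures below. A cell had at least 5 reads of a median of 2 of the 9 factors in inflamed cells of both batches, against 3 and 2 in naive cells of batches 2 and 3. At least 5 reads of both Hoxb13 and Hoxd13 were in 0 and 0 inflamed cells, against 10 and 2 naive cells of batches 2 and 3. The product of their shares gives 1.3 and 1.4 inflamed cells, against 9.3 and 2.4 naive cells. For Hoxd13 with Foxa1 the counts were 17 and 6 inflamed cells, against 9 and 4 naive cells. There the product gives 13.6 and 7.1 cells, against 11.1 and 4.2 cells. Over the 268 cells, centred within condition and batch, Spearman's rho between pairs of the 6 factors found in at least 20% of cells ran from -0.11 for Hoxa13 with Hoxa10 to 0.13 for Hoxb13 with Gata3. Levels were centred on the mean of each condition and batch, and all cells were then ranked together. Cells with 0 reads thus took ranks by group, so differences between groups were not fully removed. The points share libraries and depth, and the values are descriptions.

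Among 6980 other genes found in at least 20% of cells, those with the highest rho to Hoxb13 were Casp8ap2 (0.37), Tsc22d3 (0.35) and Cfap36 (0.34). For Hoxa13 they were Cyp1a1 (0.43), 2610002M06Rik (0.39) and Git1 (0.39), and for Hoxa10 Gins2 (0.32), Rps6-ps3 (0.32) and Gtf2h5 (0.29). Hoxd13 ranked Cep68 (0.27), Arhgap18 (0.26) and Satb1 (0.26) first. Foxa1 had Gsto1 (0.30), Grpel2 (0.27) and Rnf217 (0.25), and Gata3 had Ndufb8 (0.30), Gm14248 (0.30) and Jun (0.29). The members' own rho to the total count of a cell ran from -0.07 for Hoxd13 to 0.13 for Hoxa10. Their rho to the number of detected genes ran from -0.014 for Hoxa13 to 0.21 for Gata3 and 0.22 for Hoxa10. The other genes named here were found in 20.1% (Cfap36) to 98.9% (Jun) of cells. All of these are weak relations in sparse counts. As above, the ranks of cells with 0 reads still carried differences between groups, so a high rho need not hold within a group.

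**Figure D5:**
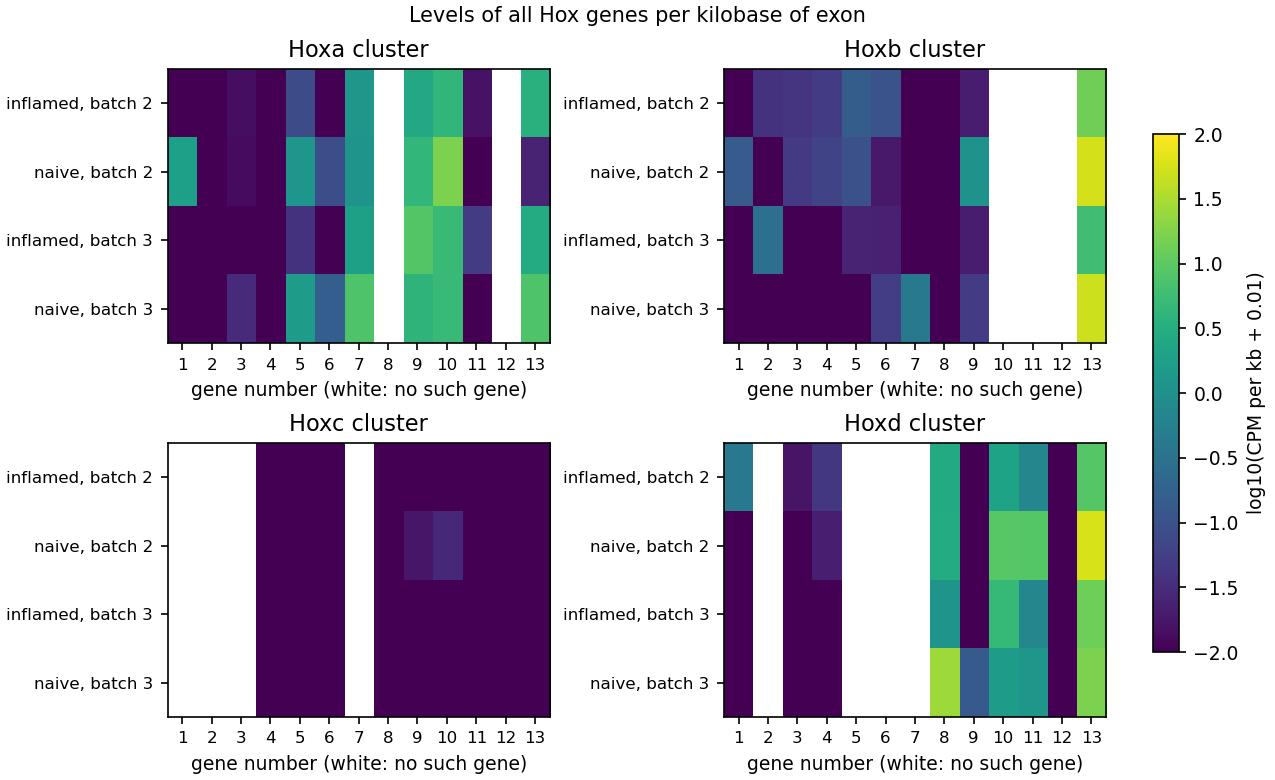
Level of every Hox gene as log10(CPM per kilobase of exon + 0.01), by cluster and gene number, in the inflamed and naive sums of each batch. Hoxb13 and Hoxd13 have the highest levels of the posterior genes in 3 of the 4 sums, with Hoxa9 (8.35 CPM per kilobase) between Hoxd13 and Hoxb13 in inflamed batch 3, Hoxd8 stands at 26.4 CPM per kilobase in naive batch 3 with 74.9% of its reads from 1 cell, and the Hoxc genes are at or near 0.

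The other Hox genes place the members within their clusters. Of 16 posterior genes (numbers 9 to 13), 12 had any read and 7 passed the filter on low counts: the 5 members, Hoxa9 and Hoxd11. Of these 7, 4 were lower and 0 higher in inflamed cells in both batches, beside 27.2% lower and 30.6% higher of all genes. The lower ones were Hoxd11 and the members Hoxb13, Hoxd13 and Hoxa10 described above. Hoxa9 went opposite ways, with a log2 ratio of -0.77 in batch 2 and 1.09 in batch 3. The median log2 fold change of the 7 was -0.995, beside 0.10 over all genes. Within batch 2 that median was -2.02, and within batch 3 it was -0.34. Hoxd11, a limb and urogenital gene next to Hoxd10, had 2.94 and 2.95 CPM in inflamed sums, against 36.8 and 5.46 CPM in naive sums. Of the 23 genes numbered 1 to 8, 16 had reads and 4 passed. Of those 4, 2 were lower and 0 higher in both batches (median log2 fold change -1.61 in the fit, and 0.05 and -4.48 within batches 2 and 3 with sums of 0 set to 3 counts). Hoxc11, Hoxc12 and Hoxc13 were listed at 0 in all 4 sums.

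Hox proteins bind DNA with partners of the Pbx and Meis families. Of 9 such genes 8 passed the filter, with 2 lower and 0 higher in both batches (median log2 fold change 0.27 in the fit, and -0.55 and -0.63 within batches 2 and 3 with sums of 0 set to 3 counts). Meis1, a partner of posterior Hox proteins, had 22.1 CPM in inflamed batch 2 and 29.7 CPM in inflamed batch 3, against 218 CPM in naive batch 2 and 460 CPM in naive batch 3. It was thus 9.90-fold and 15.5-fold lower in inflamed sums (log2 fold change -3.63 ± 0.38, adjusted p = 0.568 by edgeR). At least 5 reads of Meis1 were in 13.8% and 21.1% of inflamed cells, against 37.7% and 22.03% of naive cells. Pknox1, a relative of Meis1, had 21.5 and 59.3 CPM, against 33.2 and 113.2 CPM.

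Of the relatives of the other members, Foxa2, Foxa3, Gata1, Gata4 and Gata5 were listed at 0 in all sums, and Gata6 had 0 and 1.03 CPM in inflamed sums, against 0 and 0 in naive sums. Of 10 other ETS genes 7 passed the filter, with 3 higher and 1 lower in both batches (median log2 fold change 1.09 in the fit, and 0.12 and 0.68 within batches 2 and 3), and Elf3 and Ets1 (2 of the 7) had an unadjusted p under 0.05, beside 5.04% of all genes higher by that rule. Elf3, an ETS factor of differentiating epithelium, had 251.2 and 345 CPM in inflamed sums, against 35.1 and 78.7 CPM in naive sums (log2 fold change 2.48 ± 0.39, adjusted p = 0.568 by edgeR). Ets1, an ETS factor of the same family, had 1372 and 1414 CPM, against 356 and 882 CPM, and Ehf, another epithelial one, had 514 and 811 CPM, against 347 and 266 CPM. So Elf3, Ets1 and Ehf were well detected where Spdef was not, each with both inflamed sums above both naive sums.

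Among 25 other transcription factors of prostate epithelium, all of which passed the filter, 16 were lower and 6 higher in inflamed cells in both batches (64% and 24%, beside 27.2% and 30.6% of all genes). Their median log2 fold change was -0.67, and -0.62 and -0.43 within batches 2 and 3 with sums of 0 set to 3 counts. At an unadjusted p under 0.05, 1 was lower and 1 higher. The lower one was Nfib, a nuclear factor I gene named after its values were seen, with 895 and 1029 CPM in inflamed sums, against 2249 and 2168 CPM in naive sums. Nfix, of the same family, had 48.4 and 98.6 CPM, against 264 and 161.4 CPM. The higher one was Runx1, a Runt factor, with 490 and 362 CPM in inflamed sums, against 89.6 and 153.7 CPM in naive sums. Sox4, an HMG-box factor, had 36.2 and 79.1 CPM, against 13.3 and 25.5 CPM.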

How the data were processed

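Single cells sorted as basal prostate stem cells were compared between inflamed and naive prostates in 2 batches. The authors deposited 1 table per batch with whole-number read counts, not normalised, for each gene in each cell. TopHat2, HTSeq, R 3.4.1, Seurat 1.4 and the build GRCm38.p6 are named without roles, per the submitters' processing notes. How reads with several matches were assigned, and whether strand was used, was not stated in these sources, so reads of paralogs and of overlapping genes could be shared. Symbols and coordinates came from GENCODE M21 (GRCm38), which matched 48058 of 48440 gene identifiers.

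Cells with under 1000 genes or 50000 counts were left out (14 cells), and no doublet caller was run. Counts were summed per condition and batch, because cells are not replicates and no animal is named. If the batches are not separate sets of animals, p-values measure technical spread. The sums were tested with edgeR 4.0.16 in R 4.3.3 (quasi-likelihood F test, TMM factors, filterByExpr, condition and batch in the model, 1 residual and 2.66 prior degrees of freedom), with Benjamini-Hochberg adjustment over 14713 genes and a threshold of 0.05. The code of the test was run on simulated counts, which does not show how well the test does in these data. The batch named in the labels pairs the sums, whose batch deviations had a correlation of -0.01 across genes. Within-batch ratios are ratios of CPM, with a sum of 0 set to a floor of 3 counts. Shares of cells have exact Clopper-Pearson 95% intervals, and a share of 0 has a limit of 3 cells. Cells were also thinned to 500000 counts, which 25 cells could not supply. From each list up to 4 genes were named, those with the largest fold change among genes found in 20% of cells and with the same direction in both batches, and for each member the 3 genes most like it. Members and lists were chosen with earlier results of these data known. Alternatives were DESeq2 1.42.0, other scalings, filters and cells, no batch term, and leaving out sums or cells. Some listed genes are not reported here.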

Additional observations from a re-analysis of the deposited data

Results flagged for a closer look

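The ratio of inflamed to naive sums had opposite directions in batches 2 and 3 for 4 of the 8 factors with a ratio in both batches, and the difference between the batches was not tested, since 4 sums leave no degree of freedom for it. On the log2 scale, Hoxa13 had 7.89 in batch 2 and -1.43 in batch 3, Hoxd10 -2.16 and 1.63, Gata2 1.395 and -0.33, and Gata3 -1.52 and 0.23. Such opposite directions were seen in 39.7% of all genes tested. For Hoxa13, Hoxd10 and Gata2, 1 cell gave between 34.2% and 97.3% of the reads of every sum with more than 3 counts. For Gata3, with reads in 92.5% to 100% of cells, the top cell gave at most 15.9% of the reads of a sum.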

How the results depend on the processing

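Under edgeR, 0 genes were called higher and 0 lower in the main analysis (742 and 475 at an unadjusted p under 0.05), and 0 were called under each edgeR alternative whose calls were counted over all genes. Calls were not counted without the highest cells. DESeq2 called 927 higher and 534 lower, and gave Hoxb13 a log2 fold change of -2.55 with an adjusted p of 0.00356. For Hoxb13 the adjusted p ranged from 0.00356 to 0.800 over 13 alternatives, all with lower values in inflamed cells. Hoxd13, Hoxa10 and Foxa1 also kept a negative sign in all 13. Without the replicate block (no batch in the model), Hoxa13 turned to -0.31, and the other 7 tested factors kept their sign. Without the highest cell of each sum, Hoxd10 turned to 1.23. Leaving out 1 sum at a time, with condition only in the model so that the lone sum is taken to vary like the other pair, gave log2 fold changes of -3.13 to -1.93 for Hoxb13, -1.30 to 7.75 for Hoxa13, -2.35 to -0.59 for Hoxd13, -1.77 to -0.16 for Hoxa10, -1.39 to 1.15 for Hoxd10, -0.64 to -0.14 for Foxa1, -0.41 to 1.54 for Gata2 and -1.29 to 0.011 for Gata3. Hoxa13 turned negative without inflamed batch 2 (-0.42), inflamed batch 3 (-0.19) or naive batch 2 (-1.30), Hoxd10 turned to 1.15 and Gata2 to -0.41 without naive batch 2, and Gata3 to 0.011 without inflamed batch 2. The cause was not tested. Of the 36 shares of cells, 20 left their interval when 5 reads were required and 5 when cells were thinned. Hoxd10 and Gata2 could not be tested under the filter of 20% of cells, nor Spdef in the main fit.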

Other observations

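Genes of prostate secretion, many of them under androgen control, were followed as a further list. Of 15 such genes 14 passed the filter on low counts, with 5 higher and 4 lower in inflamed cells in both batches (median log2 fold change 0.33, beside 0.10 over all genes). A sum of 0 was present for 10 of the 14, and with these set to 3 counts the medians were -0.14 in batch 2 and 0.22 in batch 3. Defb50, a prostate beta-defensin, had 77.6 and 56.3 CPM in inflamed sums of batches 2 and 3, against 398 and 185.7 CPM in naive sums. Hpgd, the enzyme that inactivates prostaglandins, had 21.7 and 37.3 CPM, against 149.4 and 100.2 CPM. Mmp7, a matrix metalloproteinase of glandular epithelium, had 731 and 760.5 CPM in inflamed sums, against 0 and 0.379 CPM in naive sums. Set against 3 counts for the empty naive sum of batch 2, the inflamed level there was at least 13753-fold higher, and the floor covers counting error only. At least 5 reads of Mmp7 were found in 81.2% and 78.9% of inflamed cells, against 0 of 53 and 0 of 59 naive cells, which allow up to 5.66% and 5.08%. Tmprss2, an androgen-regulated protease, had 77.8 and 60.8 CPM, against 1.58 and 48.8 CPM, with 1 cell giving 75.3% and 95.5% of the naive reads. None of these passed after adjustment by edgeR (at an unadjusted p under 0.05, 1 of the list was higher and 2 were lower).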
